A study of Mus musculus with 6 samples.

Results

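The genes described here were 9 transcription factor genes: the Hox genes Hoxa3, Hoxa5, Hoxa7, Hoxa9, Hoxa10 and Hoxb4, and the cofactor genes Meis1, Pbx2 and Pbx3. They were chosen by gene symbol with earlier results of these data known, though without a threshold on their values. They make up 9 of the 24054 genes in the table of TPM values (a relative transcript level scaled to transcript length). All 9 were found, and all 9 passed the filter on low values, at least 1 TPM in at least 3 of 6 libraries.

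Poly-A RNA was sequenced from spleen cells held by magnetic beads against c-Kit (CD117), a receptor of blood stem and progenitor cells, in 6 mice. The AML group (acute myeloid leukaemia) was 3 moribund mice labelled Flt3ITD/ITD; Dnmt3afl/- MxCre. Their genotype combines a Flt3 internal tandem duplication on both alleles, 1 floxed and 1 minus allele of the DNA methyltransferase gene Dnmt3a, and a Cre transgene. The MPN group (myeloproliferative neoplasm) was 3 mice labelled Flt3ITD/ITD; Dnmt3afl/fl, with no Cre named. The Flt3 duplication was therefore common to both groups, and all contrasts below set the AML label against the MPN label. MxCre is driven by an interferon-responsive promoter and is not confined to blood cells. The labels give no age, and replicate numbers name mice without pairing them. The series' stated aim was to find the expression changes that go with loss of Dnmt3a function.

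Hox genes encode homeodomain proteins and lie in clusters in which their order along the chromosome follows their order of use along the body axis. In bone marrow the Hoxa genes, Hoxa9 above all, are used by stem and early progenitor cells and are turned down as the cells mature. Meis and Pbx proteins belong to another homeodomain class, TALE, and bind DNA together with Hox proteins. Hoxa9 with Meis1 is a well known pair in myeloid leukaemia, and Pbx3 is a known partner of both.

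The start regions of the genes were looked up because Dnmt3a methylates cytosine at CpG. DNA methylation was not analysed here, so the sequences show only how much of that substrate each start holds. RefSeq (GRCm38.p6) gave a start window for 8 of the 9 genes, of which the 250 bases before the start were used. Those of Hoxa5, Hoxa9 and Hoxa10, which were higher in AML, of Hoxb4, which went the other way, and of Meis1 and Pbx2 are printed 5′ to 3′ on the gene's strand, with each CpG in capitals. The window of Hoxa5 is chr6:52204588-52204837 (minus strand) and lies inside the long gene span of Hoxa3, outside exons. The window of Hoxa9 is chr6:52227371-52227620 (minus strand) and lies in an intron of a longer Hoxa9 transcript. The window of Hoxa10 is chr6:52240855-52241104 (minus strand), just before the annotated gene. The window of Meis1 is chr11:19018970-19019219 (minus strand), and its last 16 bases overlap an annotated Meis1 exon. The window of Hoxb4 is chr11:96318017-96318266 (plus strand), just before the gene, and the window of Pbx2 is chr17:34592009-34592258 (plus strand), in an intron of a longer Pbx2 transcript.
Hoxa5: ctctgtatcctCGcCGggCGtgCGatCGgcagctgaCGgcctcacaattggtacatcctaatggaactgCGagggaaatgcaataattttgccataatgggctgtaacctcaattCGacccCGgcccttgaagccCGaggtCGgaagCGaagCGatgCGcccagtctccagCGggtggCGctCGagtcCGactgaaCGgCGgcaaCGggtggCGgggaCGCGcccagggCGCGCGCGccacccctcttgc
Hoxa9: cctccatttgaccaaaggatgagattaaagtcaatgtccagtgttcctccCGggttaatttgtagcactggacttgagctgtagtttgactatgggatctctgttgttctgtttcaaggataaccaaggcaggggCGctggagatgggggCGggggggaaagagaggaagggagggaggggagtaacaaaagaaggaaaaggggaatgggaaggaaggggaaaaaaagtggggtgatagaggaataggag
Hoxa10: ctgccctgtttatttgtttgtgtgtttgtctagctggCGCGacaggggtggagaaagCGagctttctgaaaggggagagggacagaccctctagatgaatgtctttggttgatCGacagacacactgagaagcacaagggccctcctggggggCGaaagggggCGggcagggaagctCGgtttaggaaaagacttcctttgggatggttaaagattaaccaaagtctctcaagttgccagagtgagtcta
Meis1: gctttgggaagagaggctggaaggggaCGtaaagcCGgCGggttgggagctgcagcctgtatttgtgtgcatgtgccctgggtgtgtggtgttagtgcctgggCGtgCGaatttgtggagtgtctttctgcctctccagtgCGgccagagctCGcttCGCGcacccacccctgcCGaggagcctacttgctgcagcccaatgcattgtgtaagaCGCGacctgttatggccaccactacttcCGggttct
Hoxb4: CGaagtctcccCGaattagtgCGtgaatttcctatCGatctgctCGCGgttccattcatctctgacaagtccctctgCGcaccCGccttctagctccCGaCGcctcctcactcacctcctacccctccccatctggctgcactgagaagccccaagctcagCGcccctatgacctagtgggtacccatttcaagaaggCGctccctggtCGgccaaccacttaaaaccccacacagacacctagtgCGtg
Pbx2: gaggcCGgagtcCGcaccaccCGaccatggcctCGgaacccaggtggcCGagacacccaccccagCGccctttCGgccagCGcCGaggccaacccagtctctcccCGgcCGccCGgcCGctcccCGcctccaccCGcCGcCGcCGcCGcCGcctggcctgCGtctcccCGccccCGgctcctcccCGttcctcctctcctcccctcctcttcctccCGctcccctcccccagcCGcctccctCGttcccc

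The windows differed widely in CpG. The Hoxa5 window held 28 CpG, more than 92.4% of the 32851 windows of 27025 mouse genes, and the Pbx2 window held 27. The Hoxa9 window held 3 and the Hoxa10 window held 7, on either side of the median of all windows, 6 (quartiles 2 and 16). Hoxb4 had 14 and Meis1 had 13. A second Hoxa10 start, chr6:52234940-52235189 on the minus strand, held 20. The windows of Hoxa7, with 7, and Hoxa3, with 18, overlap an annotated exon over 78 and 250 bases and are not printed. The motif TGATNNAT, a site for Hox with Pbx, was in the upstream window of none of the 8 genes, on either strand, and in 7.68% of all windows. The motif TGACAG, a Meis site, was in that of Hoxa3 alone, against 15.9% of all windows. These are matches of letters, and no match says only that the letters are not in this window.

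Dnmt3a, the targeted gene, was lower in every AML library. It was at 11.51, 13.5 and 12.9 TPM in AML compared with 33.91, 29.28 and 33.35 TPM in MPN, a log2 fold change of -1.28 ± 0.13 (SE; limma, adjusted p = 0.000879). An exact two-sided permutation test gave p = 0.1, which is the lowest value open to 3 mice per group. Which exons the deletion removes was not given in the sources used here, and reads outside them also count. Relative depth, from the step that 1 read adds in the RPKM table, was 0.739 to 1.29 in AML and 0.936 to 1.04 in MPN. MPN replicate 1 came from another run than the other 5 libraries. By Xist and Ddx3y, AML replicates 1 and 2 were female and the other 4 mice male. Kit itself was not called, at 99.2 to 130 TPM in AML, compared with 145 to 152 TPM in MPN. Across all 12223 genes tested, 30.1% were called in either direction, 20.1% higher and 10.0% lower in AML.

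Of the 9 genes, 6 were called, 5 higher in AML (Hoxa5, Hoxa7, Hoxa9, Hoxa10 and Meis1) and 1 lower (Hoxb4). The other 3, Hoxa3, Pbx2 and Pbx3, were not. The AML and MPN mice did not overlap in 7 of the 9, the 6 called and Pbx2, where 50.9% of all tested genes did not overlap. Hoxa10 passed the filter only through its AML libraries, so it had to differ and adds nothing to either count. Because the 9 were chosen with earlier results known, neither count tests them as a set against all genes. In bulk RNA, fewer cells of a type and less RNA per cell cannot be told apart, and this holds for each result below.

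**Figure D1:**
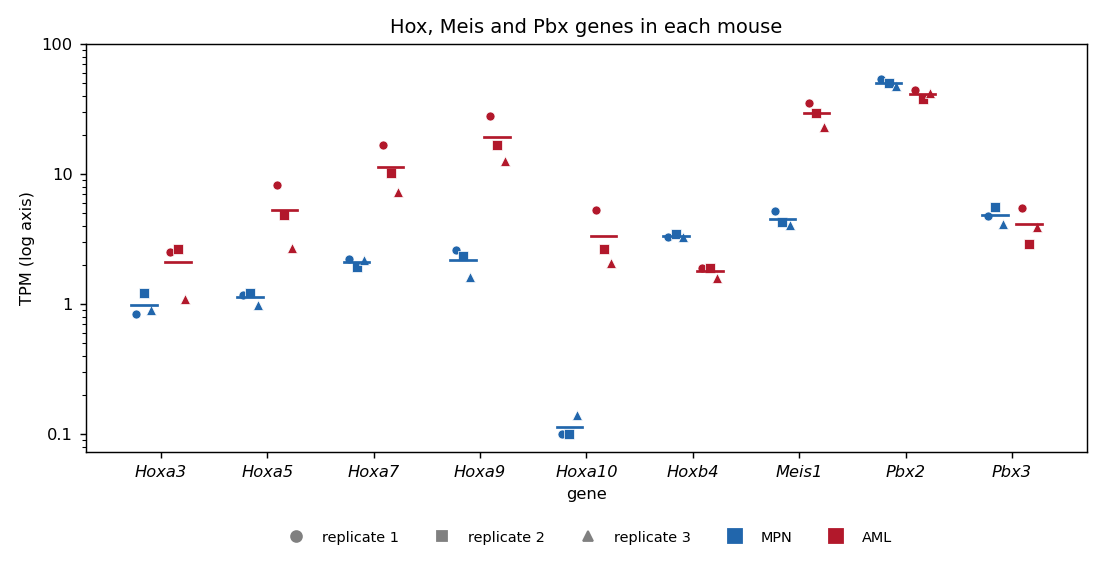
Level of the 9 genes in each mouse, in TPM on a log axis, with blue for MPN, red for AML, a marker shape per replicate and a bar at each group's mean (n = 3). The red points of Hoxa5, Hoxa7, Hoxa9, Hoxa10 and Meis1 lie above all blue points, the red points of Hoxb4 and Pbx2 lie below them, and the groups overlap in Hoxa3 and Pbx3.

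Hoxa9, the Hox gene most closely tied to progenitor self-renewal, had the largest log2 fold change of the 9 in the fit used for the calls, though not in every alternative setting. It was at 27.84, 16.88 and 12.69 TPM in the AML mice, against 2.63, 2.36 and 1.61 TPM in the MPN mice. The lowest AML mouse was 4.83 times the highest MPN mouse, so the groups were far apart although the AML mice differed 2.19-fold among themselves. The means were 19.1 ± 7.82 and 2.20 ± 0.528 TPM (SD, n = 3), an 8.70-fold ratio, and the log2 fold change was 2.60 ± 0.29 (SE; limma, adjusted p = 0.00109). The whole reads recovered from the RPKM table were 7277, 3399 and 1750 in AML and 498, 415 and 302 in MPN, so that even the low MPN level rests on at least 302 reads. Hoxa9 is ENSMUSG00000038227, at chr6:52223100-52231089 on the minus strand (GRCm38, GENCODE M21).

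Hoxa7, the neighbour of Hoxa9 and likewise a known gene of MLL-rearranged leukaemia, followed the same order of AML mice. It was at 16.72, 10.17 and 7.28 TPM in AML and at 2.23, 1.94 and 2.20 TPM in MPN. No AML mouse came near the MPN range, which was narrow. The 5.36-fold ratio of means came with a log2 fold change of 1.92 ± 0.28 (SE; limma, adjusted p = 0.00300). Hoxa7 (ENSMUSG00000038236) lies at chr6:52214491-52221854 on the minus strand.

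Hoxa10, the next gene beyond Hoxa9 and a regulator of early myeloid and megakaryocytic cells, was almost unread in MPN. It was at 5.31, 2.67 and 2.09 TPM in AML and at 0.10, 0.10 and 0.14 TPM in MPN, or 854, 362 and 185 reads against 13, 12 and 14. The ratio of means was 29.6-fold, the widest of the 9, and 29.9-fold in RPKM. Because the MPN level lies under the pseudocount of 1, the log2 fold change of 1.90 ± 0.27 (SE; limma, adjusted p = 0.00297) understates this ratio. Hoxa10 passed the filter only through its AML libraries, so that it had to differ, and its call adds nothing to its values. Hoxa10 (ENSMUSG00000000938) lies at chr6:52231197-52240854 on the minus strand.

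Hoxa5, which lies nearer the other end of the cluster and has been linked to myeloid over erythroid fate, spread the most among the AML mice. It was at 8.30, 4.88 and 2.69 TPM in AML and at 1.18, 1.22 and 0.99 TPM in MPN. The groups did not overlap, and the highest AML mouse was 3.09 times the lowest. The log2 fold change was 1.46 ± 0.32 (SE; limma, adjusted p = 0.0144) at a 4.68-fold ratio of means. That call was lost without MPN replicate 3 (adjusted p = 0.0584) and when sex was fitted (0.79, adjusted p = 0.181). Hoxa5 (ENSMUSG00000038253) lies at chr6:52201754-52204587 on the minus strand.

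Hoxa3, an anterior Hox gene best known from the pharyngeal arches, was at 2.52, 2.67 and 1.10 TPM in AML and at 0.84, 1.22 and 0.90 TPM in MPN. AML replicate 3 lay inside the MPN range and the other AML mice above it. The log2 fold change of 0.60 ± 0.25 (SE; limma, adjusted p = 0.107) did not pass, but it did without AML replicate 3 (0.86, adjusted p = 0.0189). The annotated span of Hoxa3 (chr6:52169062-52213336, minus strand) overlaps Hoxa4, Hoxa5 and Hoxa6, and how the authors' counting shared reads between overlapping genes was not given in the sources used here. The value of Hoxa3 is uncertain for that reason, as are those of Hoxa4, Hoxa5 and Hoxa6, which lie inside its span.

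The other genes of the cluster filled in the pattern. Hoxa6, between Hoxa5 and Hoxa7, was at 4.86, 3.04 and 1.90 TPM in AML and at 0.61, 0.64 and 0.88 TPM in MPN, and was called higher (1.26 ± 0.27 SE; limma, adjusted p = 0.0126), having passed the filter only through AML. With the term for sex it was at 0.77 and not called (adjusted p = 0.174). Hoxa2 was at 1.92, 1.13 and 0.77 TPM in AML and at 0.28, 0.47 and 0.28 TPM in MPN, too low to be tested. Hoxa4, also too low, overlapped, at 1.06, 0.42 and 0.50 TPM against 0.64, 0.42 and 0.24 TPM. Hoxa11 and Hoxa13, at the far end, were listed at 0 in all 6 libraries. The genes with the highest AML levels were therefore Hoxa9 and Hoxa7, with Hoxa5, Hoxa6 and Hoxa10 below them. The antisense RNA 2700086A05Rik (Hoxaas3), which overlaps the stretch from Hoxa3 to Hoxa7, was at 1.59, 1.34 and 0.75 TPM in AML and at 0.28, 0.22 and 0.63 TPM in MPN; whether the counting used strand is not stated, so its reads and those of the sense genes cannot be told apart.

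Summed over the 10 Hoxa genes listed, the level was 68.53, 41.86 and 29.02 TPM in AML and 8.51, 8.37 and 7.24 TPM in MPN, a 5.78-fold ratio of means (46.5 ± 20.2 and 8.04 ± 0.696, SD, n = 3). The amount differed widely among the AML mice, while the share of Hoxa9 among the Hox transcripts stayed close. Hoxa9 took 39.2%, 37.9% and 39.4% of all listed Hox TPM in AML, compared with 21.0%, 19.1% and 14.7% in MPN.

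**Figure D2:**
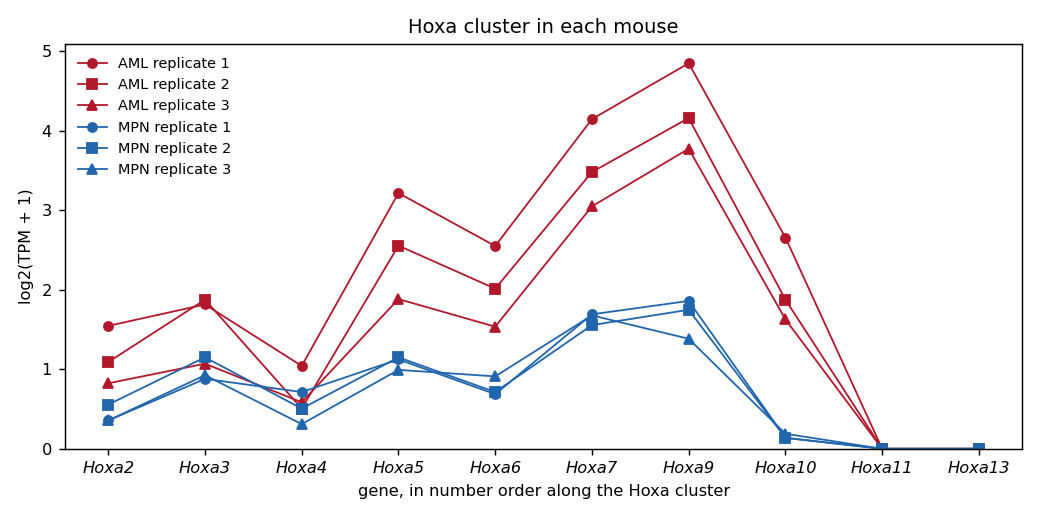
The Hoxa genes in number order (x axis) against their level as log2(TPM + 1) (y axis), with 1 line per mouse, red for AML and blue for MPN. From Hoxa5 to Hoxa10 the red lines keep 1 order of mice, replicate 1 above 2 above 3, and all lie above the blue lines, while Hoxa11 and Hoxa13 are at 0 in both groups.

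The AML mice kept a fixed order over these genes. Hoxa5, Hoxa6, Hoxa7, Hoxa9, Hoxa10 and Meis1 were each highest in AML replicate 1 and lowest in AML replicate 3, as was Hoxb4. That order is common in these libraries, found in 28.2% of all tested genes and in 43.0% of the 2454 genes called higher in AML. Relative depth ran the same way, from 1.29 in replicate 1 to 0.739 in replicate 3. So did the summed level of 12 erythroid marker genes, at 1369, 716 and 73.2 TPM, and that of 11 megakaryocyte markers, at 156, 140 and 103 TPM, while 10 dendritic cell markers ran the other way, at 530, 1321 and 1987 TPM. The part of these in the order was not tested. Sex also follows it, since AML replicate 3 was the only male of its group. With a term for sex, which sets AML replicate 3 against the MPN mice, Hoxa9 kept its call (2.11, limma adjusted p = 0.0140), as did Hoxa7 (1.41, adjusted p = 0.0361). Hoxa10 was at 1.47 (adjusted p = 0.0398), while Hoxa3 dropped to 0.08 (adjusted p = 0.878). Within the run that held 5 of the libraries, that is without MPN replicate 1, the log2 fold change was 2.70 for Hoxa9, 1.94 for Hoxa7 and 1.48 for Hoxa5, all called. It was 1.89 for Hoxa10. Hoxa10 passed the filter only through AML, so its calls in both fits carry no weight.

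Hoxb4, a Hox gene known for expanding blood stem cells when its level is raised, went the opposite way. It was at 1.91, 1.90 and 1.58 TPM in the AML mice, against 3.31, 3.46 and 3.29 TPM in the MPN mice. Both groups were tight and did not overlap, and the AML mean was 53.6% of the MPN mean (1.80 ± 0.188 and 3.35 ± 0.0929 TPM, SD, n = 3). The log2 fold change was -0.64 ± 0.16 (SE; limma, adjusted p = 0.0203). Leaving out AML replicate 3 ended that call (adjusted p = 0.0524), as did leaving out MPN replicate 1 (0.0684) or 2 (0.0916) and fitting sex (0.102), at values between -0.75 and -0.58. Hoxb4 (ENSMUSG00000038692) lies at chr11:96318267-96321638 on the plus strand. It was the only one of the 10 Hoxb genes to be tested. Hoxb2 was at 0.12, 0.21 and 0.77 TPM in AML and at 0.09, 0.03 and 0.03 TPM in MPN. Hoxb3 ranged from 0.24 to 0.66 TPM with both groups overlapping, and the other Hoxb genes stayed at or under 0.11 TPM. No Hoxc gene passed 0.13 TPM and no Hoxd gene passed 0.02 TPM. For Hoxd11 the tables disagreed: it was listed at 0 TPM in all libraries, but the RPKM table held 72 to 235 reads per library.

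The order of Hoxa9 and Hoxb4 differed between the groups, while the Hoxa sum lay above that of the Hoxb genes in both. Hoxa9 was 14.6, 8.88 and 8.03 times Hoxb4 in AML, against 0.795, 0.682 and 0.489 times Hoxb4 in MPN, on the TPM scale. Hoxb4 made up 26.5%, 28.1% and 30.05% of all listed Hox TPM in MPN, more than Hoxa9 did, and 2.69%, 4.27% and 4.91% in AML.

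Among the cofactors, Meis1 rose, and Pbx2 and Pbx3 did not pass the test. Meis1, which binds DNA with Hoxa9 and Pbx, was at 35.06, 29.58 and 23.12 TPM in AML and at 5.20, 4.27 and 4.07 TPM in MPN. The AML mice were closer to each other than for any called Hoxa gene, 1.52-fold from lowest to highest, and the lowest was 4.45 times the highest MPN mouse. The means were 29.3 ± 5.98 and 4.51 ± 0.603 TPM (SD, n = 3), a 6.48-fold ratio, and the log2 fold change was 2.44 ± 0.19 (SE; limma, adjusted p = 0.000291), the smallest adjusted p of the 9. It was 2.13 with a term for sex (adjusted p = 0.00483) and 2.53 without MPN replicate 1. Meis1 (ENSMUSG00000020160) spans chr11:18879817-19018985 on the minus strand and was read 4903 to 13155 times in AML and 1095 to 1642 times in MPN.

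The other Meis genes did not follow it. Meis3, a close relative, was at 0.17, 0.16 and 0.11 TPM in AML and at 1.69, 1.06 and 1.99 TPM in MPN. It was called lower (-1.15 ± 0.19 SE; limma, adjusted p = 0.00513), with 23 to 43 reads in AML and 225 to 382 in MPN. It passed the filter only through MPN, so that it had to differ. Meis2 stayed at or under 0.04 TPM.

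Pbx2, the highest of the 9 genes in level, was at 44.42, 37.89 and 41.70 TPM in AML and at 53.86, 50.32 and 47.49 TPM in MPN. Every AML mouse was below every MPN mouse, and the AML mean was 81.8% of the MPN mean. The log2 fold change of -0.29 ± 0.12 (SE; limma, adjusted p = 0.101) did not pass. Pbx2 was called lower in the RPKM table (-0.36, adjusted p = 0.0241), after median scaling (-0.37, 0.0283), after quantile normalization (-0.37, 0.0238) and with array weights (-0.34, 0.0141), so its call depended on the setting. The fit of the array weights stopped before it converged, which leaves calls under that setting doubtful. Median scaling moved the median of all tested genes from 0.13 to 0.05. Pbx2 (ENSMUSG00000034673) lies at chr17:34591266-34597400 on the plus strand.

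Pbx3 (ENSMUSG00000038718, chr2:34171457-34373142, minus strand), the partner of Hoxa9 and Meis1 named above, was at 5.51, 2.93 and 3.93 TPM in AML and at 4.75, 5.60 and 4.11 TPM in MPN. The groups overlapped, and the AML mice spread more (4.12 ± 1.30 TPM, SD, n = 3) than the MPN mice (4.82 ± 0.747 TPM, SD, n = 3). The log2 fold change of -0.21 ± 0.23 (SE; limma, adjusted p = 0.508) did not pass, except with array weights (-0.53, adjusted p = 0.0343), the setting that did not converge. With that SE, a small change of Pbx3 in either direction was not detectable with 3 mice a group.

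Pbx4, a Pbx gene best known from testis, was called higher. It was at 14.56, 10.44 and 7.77 TPM in AML and at 3.66, 2.95 and 2.30 TPM in MPN, without overlap. The ratio of means was 3.68-fold and the log2 fold change 1.56 ± 0.25 (SE; limma, adjusted p = 0.00438), lost only with the term for sex (1.16, adjusted p = 0.0608).

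Of the 10 TALE cofactor genes listed, 8 were tested, 3 were called higher (Meis1, Pbx4 and Tgif1), 1 lower (Meis3) and 4 neither. Meis3 passed the filter only through MPN, so that its call was set by the filter. Among all tested genes, 20.1% were called higher and 10.0% lower. The median log2 fold change of the 8 was 0.02 where all tested genes had 0.13. Tgif1, a TALE repressor of TGF-beta signalling, was at 52.91, 53.66 and 47.26 TPM in AML and at 35.62, 33.00 and 37.85 TPM in MPN (0.52 ± 0.12 SE; limma, adjusted p = 0.0152). That call was lost without MPN replicate 1 (0.52, adjusted p = 0.0555) or 2 (0.47, adjusted p = 0.0758) and with the term for sex (0.41, adjusted p = 0.204). Pknox1 (adjusted p = 0.412) and Tgif2 (adjusted p = 0.629) did not pass, and Pknox2 was at or under 0.60 TPM. Pbxip1, which binds Pbx proteins and keeps them from DNA, was at 24.24, 39.44 and 43.17 TPM in AML and at 61.11, 52.16 and 65.83 TPM in MPN. It was called lower (-0.76 ± 0.22 SE; limma, adjusted p = 0.0372), but 6 of 16 alternative settings did not call it. Hmga2, a chromatin protein of stem cells and fetal tissues listed beside Pbxip1, was at 17.39, 19.05 and 16.13 TPM in AML and at 3.13, 2.04 and 1.52 TPM in MPN (2.55 ± 0.21 SE; limma, adjusted p = 0.000357).

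**Figure D3:**
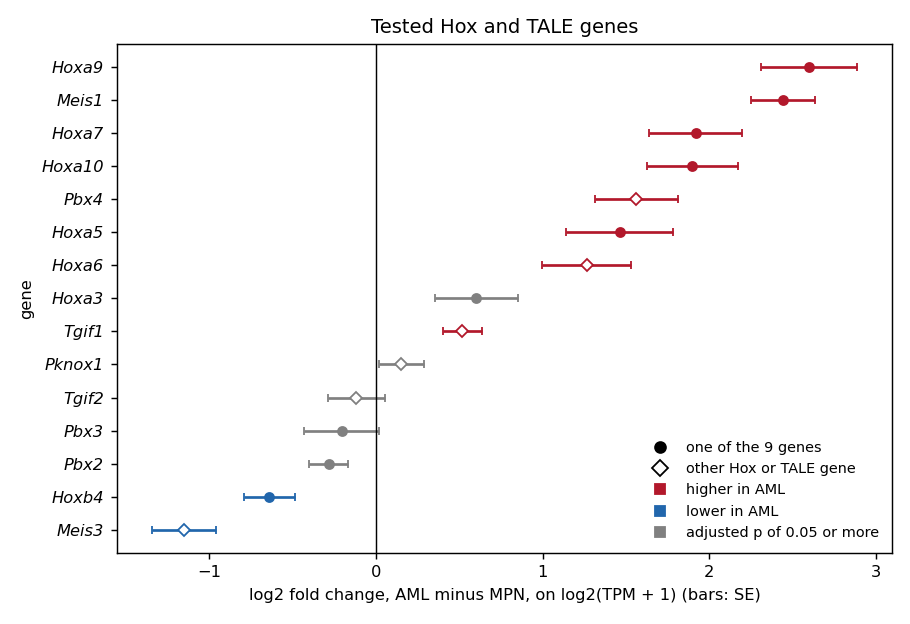
Log2 fold change of AML against MPN on the log2(TPM + 1) scale (x axis) for the listed Hox and TALE genes that were tested (y axis), with bars for the SE. Filled circles are the 9 genes and open diamonds the others, and Hoxa9, Meis1, Hoxa7 and Hoxa10 stand at the top while Hoxb4 and Meis3 stand at the bottom.

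By TPM, the level per transcript length, the order of the genes changed between the groups. In each of the AML mice Pbx2 was highest, then Meis1, Hoxa9 and Hoxa7. Over the mice, however, the ranges of Meis1 and Hoxa9, of Hoxa9 and Hoxa7, and of Hoxa7 and Hoxa5 overlapped. Hoxa5, Pbx3, Hoxa10, Hoxa3 and Hoxb4 followed, with means from 5.29 down to 1.80 TPM, and each of these overlapped the next over the AML mice. In the MPN mice Pbx2 was highest at 50.6 ± 3.19 TPM (SD, n = 3). Pbx3 and Meis1 came next and overlapped each other, then Hoxb4 at 3.35 TPM, and then Hoxa9 and Hoxa7, which overlapped each other at 2.20 and 2.12 TPM. Hoxa5 and Hoxa3 overlapped near 1 TPM, and Hoxa10 was last at 0.113 TPM. So Hoxa9 ranked above Hoxb4 in all AML mice and below it in all MPN mice.

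The RPKM table, a separate table by Ensembl gene, gave ratios of like size. Its ratios of means, AML over MPN, were 9.31 for Hoxa9, 6.30 for Meis1, 5.07 for Hoxa7, 4.46 for Hoxa5, 29.9 for Hoxa10, 2.11 for Hoxa3, 0.543 for Hoxb4, 0.771 for Pbx2 and 0.899 for Pbx3. Only 4 of the 9 passed the filter at 1 RPKM there. Hoxa7, Hoxa9 and Meis1 were called higher, and Pbx2 was called lower. Hoxa9 and Meis1 were under 1 RPKM in every MPN mouse and so passed only through AML, which leaves their calls there without weight. The order of levels was not the same as in TPM: Hoxa7, at 8.34, 5.45 and 3.91 RPKM in AML, lay above Hoxa9, at 5.83, 3.52 and 2.46 RPKM, and above Meis1, at 5.07, 4.37 and 3.31 RPKM. In MPN, Hoxa7 (mean 1.16 RPKM) lay above Hoxb4 (mean 0.665 RPKM). Hoxa9 was above Hoxb4 in all AML mice and below it in all MPN mice in this table too.

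Genes linked to the switching of Hox clusters on or off, most of them chromatin regulators, were taken from lists. Of 22 genes tested on the activator list, such as the MLL complex and its partners, 6 were called higher, 2 lower and 14 neither (median 0.15). Over all tested genes, 20.1% were higher and 10.0% lower (median 0.13). The list also holds Npm1, among those 6, and Nup98, which are tied to Hox expression as a mutant or a fusion protein. Npm1, whose cytoplasmic mutant is linked to high Hoxa expression in human leukaemia, was at 1608 ± 185 TPM in AML, compared with 1023 ± 132 TPM in MPN (SD, n = 3; 0.65 ± 0.14 SE, limma adjusted p = 0.0143). Men1, the menin that holds MLL on Hoxa9, was at 53.6 ± 5.02 and 37.8 ± 2.20 TPM (0.49 ± 0.12 SE; limma, adjusted p = 0.0202). Mllt1, Ash2l, Wdr5 and Dpy30, a reader and 3 core subunits of MLL-type complexes, were also called higher, with log2 fold changes of 0.51 to 0.74. Kat6a, an acetyltransferase of Hox chromatin, was lower (-0.40 ± 0.11 SE; limma, adjusted p = 0.0322), as was Kmt2b (-0.47, adjusted p = 0.0369). Kmt2a, which encodes MLL itself, was at 23.8 ± 2.11 and 28.3 ± 4.13 TPM and did not pass (-0.23, adjusted p = 0.268). Neither did Dot1l, at 31.2 ± 2.51 and 31.7 ± 7.85 TPM. Cdx2 and Cdx4, homeobox activators of Hox genes in the embryo, were listed at 0 in all libraries.

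Of 17 Polycomb and related genes, most of which help to keep Hox clusters silent, 1 was called higher, 1 lower and 15 neither (median 0.07). Among all tested genes, 20.1% were higher and 10.0% lower (median 0.13). The list also holds Kdm6b, a histone demethylase that works against Polycomb, which did not pass (-0.29; limma, adjusted p = 0.249). Cbx2, a chromodomain subunit of Polycomb complex PRC1, was at 12.1 ± 2.14 TPM in AML, compared with 5.56 ± 0.610 TPM in MPN (0.98 ± 0.18 SE; limma, adjusted p = 0.0077). Jarid2, which guides complex PRC2, was lower, at 32.1 ± 2.30 and 45.9 ± 1.55 TPM (-0.51 ± 0.11 SE; limma, adjusted p = 0.0150). Cbx8, Rnf2, Suz12 and Bmi1 did not pass (adjusted p = 0.0804, 0.118, 0.152 and 0.164), and neither did the PRC2 genes Ezh2 and Eed. Cbx8 was called lower without AML replicate 2 (-0.87, adjusted p = 0.0192), and Rnf2 higher with array weights (0.42, adjusted p = 0.0350). The regulator calls depended on the setting. With the term for sex, the calls of Npm1 (0.55; limma, adjusted p = 0.158) and Cbx2 (0.70, adjusted p = 0.124) were lost, at log2 fold changes of the same direction. The calls of Mllt1, Ash2l, Men1, Wdr5, Kat6a and Jarid2 were lost in 3 or more of 16 alternative settings.

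Of 21 tested targets of Hoxa9 and Meis1, taken from textbook knowledge, 14 were called higher, 1 lower and 6 neither, with a median log2 fold change of 0.68. Over all tested genes, 20.1% were higher and 10.0% lower, with a median of 0.13. Cd34, a surface protein of stem and progenitor cells, was at 338 ± 70.6 TPM in AML, compared with 49.6 ± 8.54 TPM in MPN (2.73 ± 0.19 SE; limma, adjusted p = 0.000231). Erg, a factor of stem cell and megakaryocyte programmes, was at 68.5 ± 14.1 and 10.4 ± 2.72 TPM (2.62 ± 0.22 SE; limma, adjusted p = 0.000344). Hlf, a factor of stem cells, was at 24.5 ± 13.0 and 1.76 ± 0.824 TPM (3.14). Mecom, which encodes Evi1, was at 10.2 ± 5.20 and 0.383 ± 0.110 TPM. Mecom passed the filter only through AML. Myc, a regulator of cell growth, was also higher, at 243 ± 36.3 and 79.8 ± 6.29 TPM, and the kinase gene Pim1 at 331 ± 33.4 and 113 ± 17.1 TPM. Bcl2, Cdk6, Sox4, Myb, Lmo2, Flt3, Mef2c and Etv6 were called higher as well.

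Not all listed targets rose. Trib2, a pseudokinase that Meis1 is known to switch on, was lower, at 0.743 ± 0.615 TPM in AML, compared with 5.65 ± 2.91 TPM in MPN (SD, n = 3; -1.87 ± 0.42 SE, limma adjusted p = 0.0153). Syk, Trib1, Id2, Ccnd3, Lmo4 and Hif1a did not pass. Igf1, too low to be tested, was at 0.13, 0.27 and 0.02 TPM in AML and at 0.84, 0.59 and 1.42 TPM in MPN. Epas1, also too low, overlapped between the groups, and Ccna1 was listed at 0 in all libraries. The target list and the progenitor marker list overlap: 4 of its genes (Cd34, Flt3, Myb and Sox4) are on both, and all 4 were called higher. Of the other 17 tested, 10 were higher, 1 lower and 6 neither. The number of regulators and targets called, 25 of 60 tested, was 14, 13 and 17 without MPN replicates 1, 2 and 3, and 10 with the term for sex. Over all 12223 tested genes, 3678 (30.1%) were called. That number was 2277, 2009 and 2280 without those replicates, and 1208 with the term for sex.

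**Figure D4:**
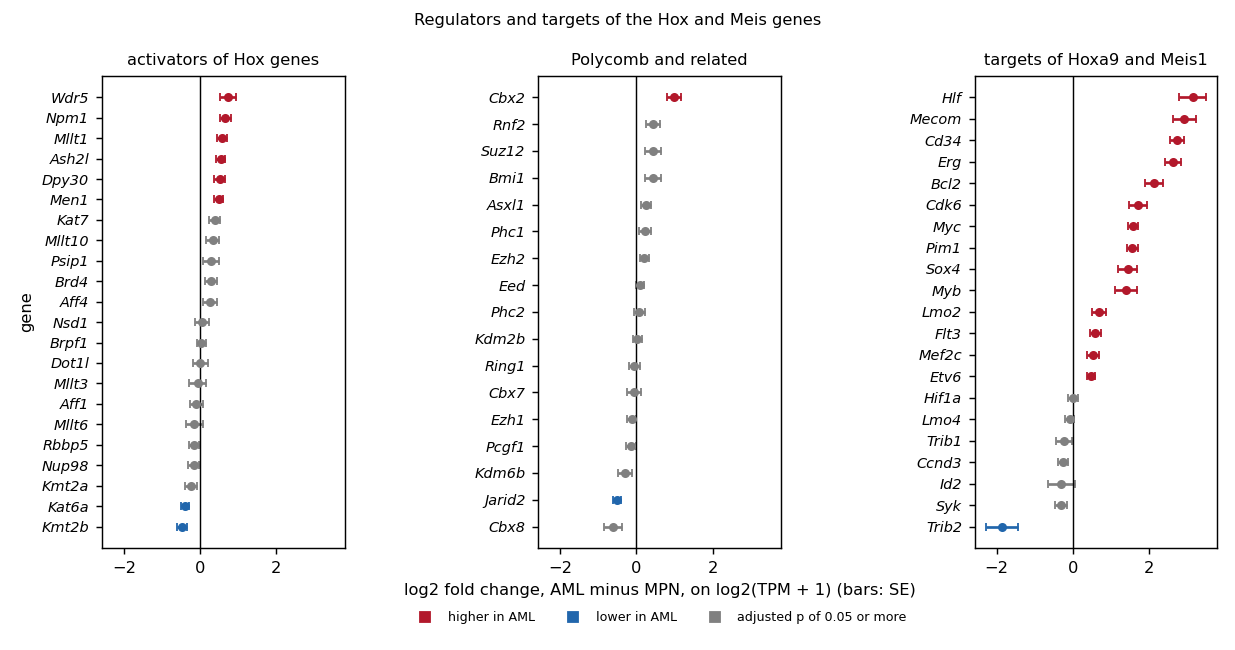
Log2 fold change of AML against MPN on the log2(TPM + 1) scale (x axis), with SE bars, for the tested genes of 3 lists (y axis): activators of Hox genes, Polycomb and related genes, and targets of Hoxa9 and Meis1. Points of the first 2 lists stay within about 1 unit of 0, while targets such as Hlf (3.14) and Cd34 (2.73) stand far above.

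The genes most like Hoxa9 over the 6 libraries were found by the root mean square difference of gene-centred log2(TPM + 1) values. They were Timp3, an inhibitor of matrix proteases (difference 0.0919), Rab38, a small GTPase (0.121), Emilin2, a matrix glycoprotein (0.137), Myct1 (0.154) and F2rl3, a thrombin receptor (0.156). Timp3 was at 12.7 ± 4.34 TPM in AML, compared with 1.33 ± 0.280 TPM in MPN (SD, n = 3). Meis1 ranked 16th among all genes for likeness to Hoxa9 (0.198), ahead of Hoxa7 (139th), Hoxa10 (147th), Hoxa5 (302nd) and Hoxa6 (484th). The genes most like Meis1 were Pomgnt2 (0.0809), Emilin2 (0.0958), Eya2 (0.0959), Ociad2 (0.0991) and Rab38 (0.113), with Hoxa9 at 45th. Emilin2 and Rab38 were thus on both lists, Emilin2 at 194 ± 52.8 and 31.1 ± 4.08 TPM. The measure counts the difference between the groups as well as the order of mice within them. It also depends on level, since log2(TPM + 1) understates the change of low genes. Hoxa10, for 1, had a 29.6-fold ratio of means but a log2 fold change of 1.90. The ranks of the Hoxa genes are therefore no measure of how closely they followed Hoxa9.

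Transcripts of other cell types were present in the c-Kit+ cells, and the summed level of several marker lists differed between the groups. Of 12 progenitor markers tested, 7 were called higher in AML, and their summed level was 4890 to 11531 TPM in AML and 3963 to 5226 TPM in MPN. Of 10 mature neutrophil markers, 8 were lower, with sums of 6905 to 20665 TPM and 30506 to 48377 TPM. Of 10 macrophage markers, 9 were lower (36.2 to 74.9 against 193 to 348 TPM), and of 6 B cell markers, 5 were lower (27.7 to 36.6 against 77.5 to 104 TPM), with Pax5 at or under 0.09 TPM in AML and Cd79b, at 26.05 to 33.94 TPM there, carrying the sum. Of these B cell markers 4 passed the filter only through MPN and had to be lower, as did 2 of the macrophage markers, the dendritic cell marker Siglech and the endothelial marker Kdr. Of 13 T and NK cell markers, 9 were lower and 2 higher, and the latter, Nkg7 and Lat, carried the sum (315 to 518 against 198 to 204 TPM); 8 of the 13 passed the filter only through MPN, so that most of the lower calls were set by the filter. Of 10 dendritic cell markers, 4 were lower and Flt3 was higher (530 to 1987 against 2079 to 2631 TPM). Of 12 erythroid markers, 2 were lower (73.2 to 1369 against 529 to 3126 TPM), and of 10 megakaryocyte markers, 3 were higher (103 to 156 against 52.3 to 84.5 TPM). Of 4 stromal and endothelial markers tested, Pecam1 and Pdgfrb were higher and Kdr lower (95.8 to 135 against 64.6 to 68.7 TPM), with Dcn at 0 in AML and Col1a1 at or under 0.25 TPM in all libraries. The part of these cell types in the rise of Hoxa9, Hoxa7, Hoxa5, Hoxa10 and Meis1, and in the fall of Hoxb4 and Meis3, was not tested.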

How the data were processed

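RNA-seq of c-Kit+ spleen cells from 3 AML and 3 MPN mice was analysed from 2 tables. Gene symbols carry TPM values as deposited; per the file headers these come from RSEM at gene level, 1 column for each mouse. The RPKM values, deposited by the authors per Ensembl gene, had 1 read added to every gene, and 100.0% of their low values came out as whole reads to within 0.05. Whole reads and relative depth were read from those steps and used as a description of depth; no count model was run. Per the submitters' processing notes, TopHat2, RSEM and Bowtie2 and the builds mm9 and mm10 were used, with no role or version named. TPM keeps no depth, so counting error enters only through the spread between mice.

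The 12223 of 24054 genes that reached 1 TPM in 3 or more libraries were compared as log2(TPM + 1) with limma 3.58.1 in R 4.3.3 (mean-variance trend, no covariate, two-sided, Benjamini-Hochberg over all tested genes, threshold 0.05). Fold changes on that scale understate the change of low genes. Replicates were numbered in accession order. The script was tested on simulated data. Alternatives were pseudocounts of 0.1 and 5, a filter at 5 TPM or none, quantile normalization, median scaling, no trend, array weights, the RPKM table, a term for sex, which assumes that AML replicate 3 varies like the other mice, and leaving out each mouse. Positions come from GENCODE M21 on GRCm38 and start windows from RefSeq GRCm38.p6; which build the tables used was not given in the sources used here. Of 25991 RPKM identifiers, 25213 matched a symbol. All Hox, TALE and marker genes on the lists were looked up. Hox and TALE genes that reached 1 TPM in a library were named, but only some of the marker genes were. Also named were up to 6 genes of smallest p from each regulator or target list and 5 genes most like Hoxa9 and Meis1. Dpy30, Kmt2b, Kmt2a, Dot1l, Ezh2, Eed and the other targets were named after their values were seen. The members and lists were chosen with earlier results of these data known. A few listed genes are not reported here and were left out of the list counts and sums.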

Additional observations from a re-analysis of the deposited data

How the results depend on the processing

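Across 16 alternative settings, Hoxa7, Hoxa9 and Meis1 kept their direction and call in all 16, though in the RPKM table Hoxa9 and Meis1 passed the filter only through AML. Hoxa10 kept its direction in the 14 in which it was tested, but its call had to follow wherever it passed the filter only through AML. The log2 fold changes of Hoxa9 ranged from 1.70 to 3.02 (highest adjusted p 0.0140), of Meis1 from 1.64 to 2.66, of Hoxa7 from 1.16 to 2.29 and of Hoxa10 from 0.69 to 3.91. With a pseudocount of 0.1, Hoxa10 had a larger log2 fold change than Hoxa9. Meis1 did so with a pseudocount of 5, with array weights, with the term for sex and without AML replicate 1. Of the 9 genes, 6 were called, 4 with the term for sex and 5 to 6 when 1 mouse was left out. Each of these counts includes Hoxa10, whose call had to follow. With the filter at 5 TPM, 3 of the 4 tested were called, Hoxa7, Hoxa9 and Meis1. They passed that filter through AML, with Meis1 over 5 TPM in 1 MPN mouse, so that these calls carry no weight. The Dnmt3a difference kept its call throughout, at -1.35 to -1.22 when 1 mouse was left out. Over all genes 3678 were called, 1208 with a term for sex, and 2009 to 3705 when 1 mouse was left out. The share of calls that were higher in AML was 66.7%, and 55.7% with the term for sex. Of the 8 other Hox and TALE genes tested, counted with Pbxip1 and Hmga2, 6 were called, where 30.1% of all tested genes were. When 1 mouse was left out, 4 to 6 were called. Among the 6, Hoxa6 passed the filter only through AML and Meis3 only through MPN, so both had to differ. With the term for sex, 2 were called, Meis3 and Hmga2. Of the regulators and targets, 25 were called, 10 with the term for sex and 13 to 24 when 1 mouse was left out. Tgif2, at -0.12, ranged from -0.22 to 0.011 (without AML replicate 3) when 1 mouse was left out; none of these was past the threshold, and the cause was not tested. Other calls that changed are named with each gene. The array weights did not converge. No paired analysis was possible because the labels give no replicate numbers shared between the groups. Hoxa3, Hoxa5, Hoxa10, Hoxb4 and Pbx3 were not tested under the filter at 5 TPM, since each reached it in fewer than 3 libraries. Leaving out 1 mouse leaves 2 in its group.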
